A study of Mus musculus with 16 samples.

Results

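Col23a1, Cdh4, Frmpd1 and Elfn1 are 4 of the 24421 genes in the deposited count tables. They were chosen by their CPM per library, because their levels were high in control mice given a Foxp2 virus and much lower in BACHD mice given the same virus, and their relation to the Foxp2 level of each library is described here. The levels in those groups are therefore a description and carry no test. All 4 passed the filter on low counts, which kept 13563 genes.

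The study sequenced striatal RNA from 16 mice aged 13 months, 4 in each of 4 groups, after injection of a Foxp2 or a control virus into BACHD or control mice. The BACHD line, a model of Huntington disease, has mutant human huntingtin inserted on a bacterial artificial chromosome. BACHD+Foxp2 mice were BACHD mice given the Foxp2 virus, labelled Foxp2 OX. BACHD+Con mice had the BACHD genotype and the control virus. Con+Foxp2 mice had the control genotype and the Foxp2 virus, and Con+Con mice had the control genotype and the control virus. Every mouse was therefore injected, and no group without a virus was analysed here. The sources used here do not give the type of virus, the cells it reached or the time since injection. Nothing in the labels names a batch. The mice are called by the number in their label, which names a mouse within its group.

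Foxp2 is a forkhead transcription factor that binds DNA and mostly lowers, but can also raise, the transcription of its targets. In the striatum it is found in projection neurons, the inhibitory cells that form the output of this region. The 4 genes code for proteins of the cell surface or just beneath it. Col23a1 encodes collagen XXIII, a collagen that spans the membrane and can be shed from it by furin. Cdh4 encodes R-cadherin, a classical cadherin that joins cells by binding its like on the neighbouring cell and is tied to the cytoskeleton by catenins. Frmpd1 encodes a scaffold with a FERM and a PDZ domain that binds AGS3, a regulator of inhibitory G protein subunits that is the product of Gpsm1. Elfn1 encodes a leucine-rich repeat protein of the postsynaptic membrane, best known from interneurons, which recruits metabotropic and kainate glutamate receptors to the presynaptic side.

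The genes lie on different chromosomes, all on the plus strand, and all are annotated as protein coding in GENCODE M21 on GRCm38, the build also called mm10. Col23a1 (ENSMUSG00000063564.13) spans chr11:51289920-51583918 and has 5736 bases of exons. Cdh4 (ENSMUSG00000000305.12) spans chr2:179442431-179899373 with 7257 exon bases. Frmpd1 (ENSMUSG00000035615.12) spans chr4:45184875-45285936 with 5324 exon bases. Elfn1 (ENSMUSG00000048988.8) spans chr5:139907943-139974722 with 4172 exon bases. The antisense gene Frmpd1os overlaps Frmpd1 but shares 0 exon bases with it and had 12 reads over all 16 libraries. Processed pseudogenes of the opposite strand lie within Cdh4 and Elfn1, each with 0 shared exon bases.

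Promoter sequence is shown for the 3 genes with an entry, because these genes were chosen for a shared pattern and a reader may wish to compare their starts. Each is the 200 bases from 250 to 51 before the RefSeq start on GRCm38.p6, plus strand, 5′ to 3′, with CpG dinucleotides in capitals. The windows are chr11:51289670-51289869 for Col23a1, chr4:45184656-45184855 for Frmpd1 and chr5:139907616-139907815 for Elfn1, and each holds 0 exon bases of its own gene in GENCODE M21. Exons of other genes were not looked for.
Col23a1: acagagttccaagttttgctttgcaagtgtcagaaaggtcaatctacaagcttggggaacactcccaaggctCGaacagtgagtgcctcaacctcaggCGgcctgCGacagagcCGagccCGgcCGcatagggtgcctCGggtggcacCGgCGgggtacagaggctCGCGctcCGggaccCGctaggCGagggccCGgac
Frmpd1: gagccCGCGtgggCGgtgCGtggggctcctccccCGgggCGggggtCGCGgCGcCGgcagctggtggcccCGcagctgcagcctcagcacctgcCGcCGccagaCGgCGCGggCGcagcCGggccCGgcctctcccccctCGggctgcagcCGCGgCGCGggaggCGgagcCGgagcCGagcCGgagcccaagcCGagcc
Elfn1: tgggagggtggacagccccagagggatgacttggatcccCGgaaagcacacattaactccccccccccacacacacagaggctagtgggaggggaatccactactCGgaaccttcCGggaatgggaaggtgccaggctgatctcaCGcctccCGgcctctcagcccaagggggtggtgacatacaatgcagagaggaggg

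The 3 windows differed in base composition. Frmpd1 had 29 CpG dinucleotides and 83.5% GC, and 2.51% of 32851 RefSeq promoter windows of the same length had at least as many CpG. Col23a1 had 15 CpG and 63.5% GC, a count reached by 17.8% of windows. Elfn1 had 5 CpG and 61.5% GC, where the median window had 4 CpG and 51.5% GC, and 22.3% of windows had a GC share at least as high. Searched on both strands for 4 forkhead motifs of 7 letters, the 3 windows held none of them. TATTTAT occurred in 4.09% of all windows, TATTTGT in 2.73%, TGTTTAC in 2.58% and TGTTTAT in 3.54%, and at least 1 of them in 11.6%. The absence of a match says only that these letters are not in these 200 bases.

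Libraries held 2660395 to 3669748 reads assigned to genes, with a median of 3014099.5. Levels are CPM, reads scaled to a common library total after correction of library sizes by trimmed mean of M values (TMM), and are given per mouse in the order of mouse 1 to 4. Means carry the SD over 4 mice. The delivered gene was measured first. Foxp2 had 1729, 1291, 1431 and 1929 CPM in BACHD+Foxp2 mice, against 87.3, 129, 153 and 105 CPM in BACHD+Con mice. It had 3819, 4389, 4350 and 3500 CPM in Con+Foxp2 mice, against 98.5, 150, 93.2 and 130 CPM in Con+Con mice. The labelled virus matched the Foxp2 level in all 16 libraries. The Foxp2 ranges of BACHD+Foxp2 and Con+Foxp2 mice did not overlap, so for the genes below the genotype and the amount of Foxp2 cannot be told apart. In whole tissue a change in the number of cells of a type and a change of RNA per cell cannot be told apart either.

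Col23a1, the membrane collagen, differed most between the groups. It had 23.4, 24.2, 18.2 and 20.1 CPM in BACHD+Foxp2 mice, against 6.19, 8.26, 8.06 and 11.2 CPM in BACHD+Con mice. It had 127, 124, 155 and 96.6 CPM in Con+Foxp2 mice, against 7.08, 13.2, 18.0 and 2.60 CPM in Con+Con mice. The lowest Con+Foxp2 library thus stood far above the highest of the other 12, and the BACHD+Foxp2 libraries lay in between, above every control-virus library, though the lowest of them and Con+Con mouse 3 were nearly level. Con+Foxp2 values rested on 354 to 469 reads, and the uneven Con+Con values on 7 to 56 reads. Means were 21.5 ± 2.81 CPM in BACHD+Foxp2, 8.42 ± 2.06 CPM in BACHD+Con, 126 ± 24.0 CPM in Con+Foxp2 and 10.2 ± 6.76 CPM in Con+Con. The log2 fold change of the Foxp2 over the control virus was 1.35 (SE 0.33) in BACHD mice and 3.60 (SE 0.31) in control mice. Between BACHD+Foxp2 and Con+Foxp2 mice it was −2.55 (SE 0.29).

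Cdh4, the classical cadherin, was high in Con+Foxp2 mice and near a common level in the other 3 groups. It had 20.8, 34.4, 15.5 and 17.2 CPM in BACHD+Foxp2 mice, against 19.6, 19.8, 30.9 and 16.6 CPM in BACHD+Con mice. It had 67.3, 64.8, 59.3 and 53.8 CPM in Con+Foxp2 mice, against 17.1, 24.5, 19.3 and 20.5 CPM in Con+Con mice. BACHD mouse 2 of the Foxp2 virus and BACHD mouse 3 of the control virus stood above the rest of their groups, and neither reached the lowest Con+Foxp2 library. The mean was 22.0 ± 8.55 CPM in BACHD+Foxp2 mice, 21.7 ± 6.29 CPM in BACHD+Con mice, 61.3 ± 6.01 CPM in Con+Foxp2 mice and 20.3 ± 3.08 CPM in Con+Con mice. The log2 fold change of the virus was 0.02 (SE 0.24) in BACHD mice and 1.59 (SE 0.24) in control mice, and BACHD+Foxp2 over Con+Foxp2 mice gave −1.48 (SE 0.24).

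Frmpd1, the scaffold of the AGS3 pathway, had the same order of groups at the top. It had 17.2, 18.7, 21.7 and 24.9 CPM in BACHD+Foxp2 mice, against 18.6, 21.5, 15.1 and 16.6 CPM in BACHD+Con mice. It had 65.4, 72.0, 81.9 and 61.7 CPM in Con+Foxp2 mice, against 28.3, 12.9, 20.6 and 34.2 CPM in Con+Con mice. The Con+Con range was wide enough to hold every BACHD library of either virus. Means were 20.6 ± 3.41 CPM in BACHD+Foxp2, 17.9 ± 2.75 CPM in BACHD+Con, 70.2 ± 8.85 CPM in Con+Foxp2 and 24.0 ± 9.29 CPM in Con+Con. The log2 fold change of the virus was 0.20 (SE 0.24) in BACHD mice and 1.55 (SE 0.23) in control mice. BACHD+Foxp2 over Con+Foxp2 mice gave −1.76 (SE 0.23).

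Elfn1, the postsynaptic adhesion protein, was the least even of the 4 in Con+Foxp2 mice. It had 24.1, 30.1, 32.7 and 20.4 CPM in BACHD+Foxp2 mice, against 29.9, 24.1, 24.2 and 29.3 CPM in BACHD+Con mice. It had 56.7, 106, 61.0 and 58.7 CPM in Con+Foxp2 mice, against 34.2, 19.0, 33.8 and 23.8 CPM in Con+Con mice. Con+Foxp2 mouse 2 stood apart from the other 3, which differed little, and those 3 still lay above all 12 libraries of the other groups. Means were 26.8 ± 5.58 CPM in BACHD+Foxp2, 26.9 ± 3.16 CPM in BACHD+Con, 70.7 ± 23.8 CPM in Con+Foxp2 and 27.7 ± 7.54 CPM in Con+Con. The log2 fold change of the virus was −0.00 (SE 0.24) in BACHD mice and 1.35 (SE 0.23) in control mice. Without Con+Foxp2 mouse 2 the value in control mice was the lowest of all alternatives tried, 1.09. BACHD+Foxp2 over Con+Foxp2 mice gave −1.40 (SE 0.23).

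**Figure D1:**
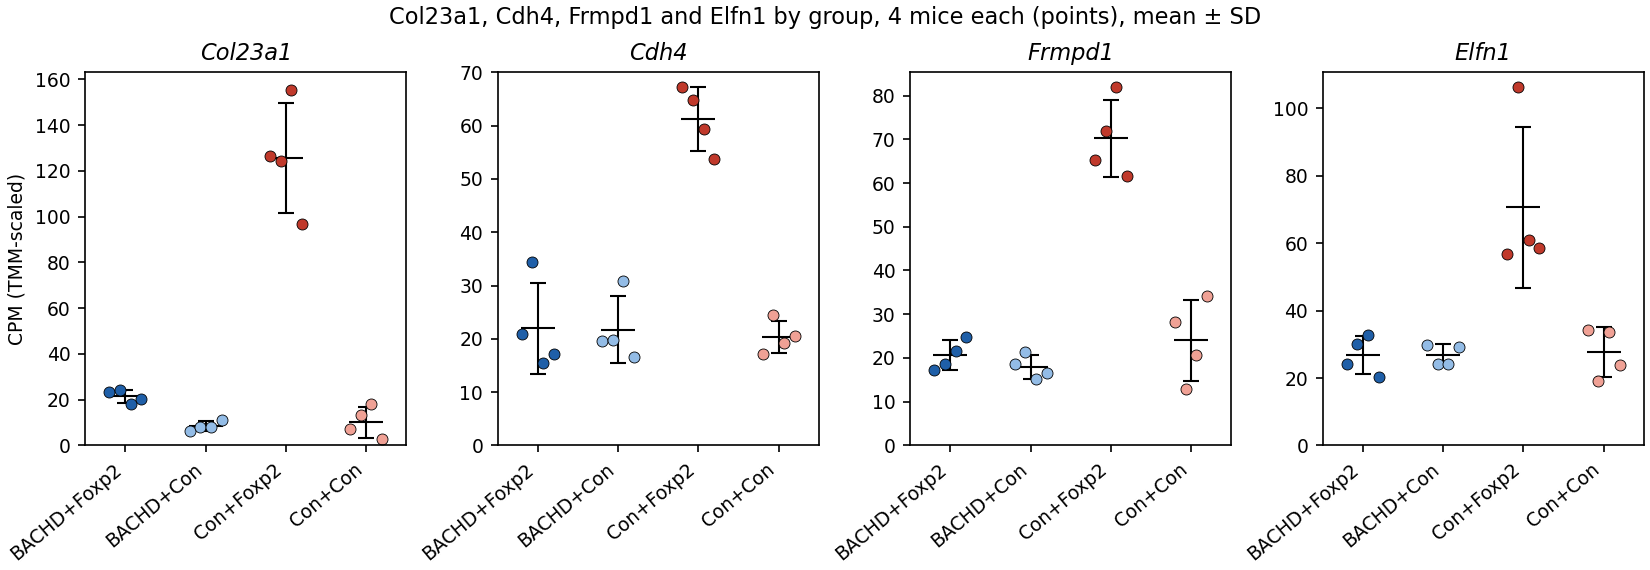
CPM of Col23a1, Cdh4, Frmpd1 and Elfn1 (y axis, linear from 0, TMM-scaled) in each mouse of the 4 groups (x axis), with points for mice, a horizontal bar for the mean and error bars for the SD over 4 mice. In each panel the 4 Con+Foxp2 mice lie above the 12 others, and the BACHD+Foxp2 mice stand clear of BACHD+Con mice for Col23a1, at 18.2 to 24.2 CPM.

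These counts follow from how the genes were chosen and are given beside the same counts over all tested genes. For 4 of 4 genes the Con+Foxp2 libraries lay above all Con+Con libraries, as they did for 2.71% of tested genes. For 4 of 4 the BACHD+Foxp2 libraries lay below all Con+Foxp2 libraries, against 1.6% of tested genes. BACHD+Foxp2 libraries were all higher than BACHD+Con libraries for 1 of 4 genes, Col23a1, against 1.78%. The Con+Foxp2 libraries lay above all 12 others for 24 genes, 0.177% of those tested, the 4 described here among them. On the log2 scale, the virus effect in BACHD mice minus that in control mice was −2.25 (SE 0.45) for Col23a1, −1.58 (SE 0.34) for Cdh4, −1.35 (SE 0.33) for Frmpd1 and −1.35 (SE 0.33) for Elfn1. For Foxp2 itself this difference was −1.34 (SE 0.23), since it too was lower in BACHD+Foxp2 than in Con+Foxp2 mice.

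Levels of different genes were compared per kilobase of exon. In BACHD+Foxp2 mice Elfn1 was highest, at 6.43 ± 1.34 CPM per kb, followed by Frmpd1 at 3.87 ± 0.640, Col23a1 at 3.75 ± 0.490 and Cdh4 at 3.03 ± 1.18 CPM per kb. In BACHD+Con mice the values were 6.44 ± 0.757 CPM per kb for Elfn1, 3.37 ± 0.517 for Frmpd1, 2.99 ± 0.867 for Cdh4 and 1.47 ± 0.359 for Col23a1. In Con+Foxp2 mice Col23a1 was highest, at 21.9 ± 4.19 CPM per kb, followed by Elfn1 at 16.9 ± 5.72, Frmpd1 at 13.2 ± 1.66 and Cdh4 at 8.45 ± 0.8287 CPM per kb. In Con+Con mice the order was Elfn1 at 6.64 ± 1.81 CPM per kb, Frmpd1 at 4.51 ± 1.74, Cdh4 at 2.80 ± 0.424 and Col23a1 at 1.78 ± 1.18. Col23a1 thus had the lowest mean per kb in both groups given the control virus and the highest in Con+Foxp2 mice. The libraries of neighbours in these orders overlapped, except for Elfn1 above Frmpd1 in both BACHD groups, Cdh4 above Col23a1 in BACHD+Con mice and Frmpd1 above Cdh4 in Con+Foxp2 mice.

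The comparison of BACHD+Con with Con+Con mice was not the one the choice rested on, although the low level in Con+Con mice entered it. The genes were also taken as raised mainly in controls, and a small rise in BACHD mice ties the BACHD+Con level to the low BACHD+Foxp2 level. The test is therefore not fully independent of the choice. By edgeR's quasi-likelihood test, adjusted by Benjamini-Hochberg over 13563 genes, 0 of the 4 genes passed an adjusted p of 0.05, and 0 had an unadjusted p under 0.05, which 3.44% of all tested genes had. DESeq2 and limma-voom also called 0 of the 4, and edgeR called 0.0147% of all tested genes. The log2 fold change was −0.30 (SE 0.35) for Col23a1, with a 95% interval of 0.480 to 1.38 for the fold. It was 0.10 (SE 0.24, interval 0.741 to 1.55) for Cdh4, −0.41 (SE 0.24, interval 0.521 to 1.08) for Frmpd1 and −0.05 (SE 0.24, interval 0.677 to 1.38) for Elfn1. The adjusted p by edgeR was 1.00 for each. The interval of every gene held 1, and that of Cdh4 reached as far as 1.55-fold higher in BACHD+Con mice.

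Each library's rise was set against its Foxp2 level, as CPM above the mean of the control-virus mice of the same genotype. Mean Foxp2 in BACHD mice rose by 37.9% of its rise in control mice, and all 4 genes had smaller shares. The share was 11.3% for Col23a1, 5.78% for Frmpd1, 0.640% for Cdh4 and −0.0740% for Elfn1. Per 1000 CPM of added Foxp2, Col23a1 gained 9.18 ± 3.10 CPM in BACHD+Foxp2 mice and 29.5 ± 4.09 CPM in Con+Foxp2 mice (SD, n = 4 each). Frmpd1 gained 1.71 ± 1.98 CPM in BACHD+Foxp2 mice and 11.8 ± 1.24 CPM in Con+Foxp2 mice. Both genes kept the groups apart on this scale, with the highest BACHD+Foxp2 library at 13.5 CPM against the lowest Con+Foxp2 library at 25.6 CPM for Col23a1, and at 3.84 CPM against 11.1 CPM for Frmpd1. Elfn1 gained 0.484 ± 3.74 CPM in BACHD+Foxp2 mice and 10.8 ± 5.10 CPM in Con+Foxp2 mice, and its ranges met nowhere either, with 4.43 CPM as the highest against 7.83 CPM as the lowest. Cdh4 gained 0.755 ± 6.91 CPM in BACHD+Foxp2 mice and 10.6 ± 1.51 CPM in Con+Foxp2 mice. Its BACHD+Foxp2 mouse 2, at 10.8 CPM, lay within the Con+Foxp2 range of 9.22 to 12.7 CPM, and the other 3 BACHD+Foxp2 mice were below 0. In BACHD mice the 3 small values were unsteady. Cdh4 was at −2.59 CPM without BACHD+Foxp2 mouse 2 and 2.86 CPM without BACHD+Con mouse 3, Elfn1 at −0.831 CPM without BACHD+Foxp2 mouse 3 and 1.83 CPM without BACHD+Foxp2 mouse 4, and Frmpd1 at 1.01 CPM without BACHD+Foxp2 mouse 4. The genes were chosen for levels high in Con+Foxp2 and much lower in BACHD+Foxp2 mice. The small shares and the separation on this scale follow in part from that choice, and nothing is read from them. How many of all tested genes keep these groups apart on this scale was not counted. The scale assumes that a gene gains in proportion to Foxp2, and the mice hold no library with a Foxp2 level between 1929 and 3500 CPM.

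**Figure D2:**
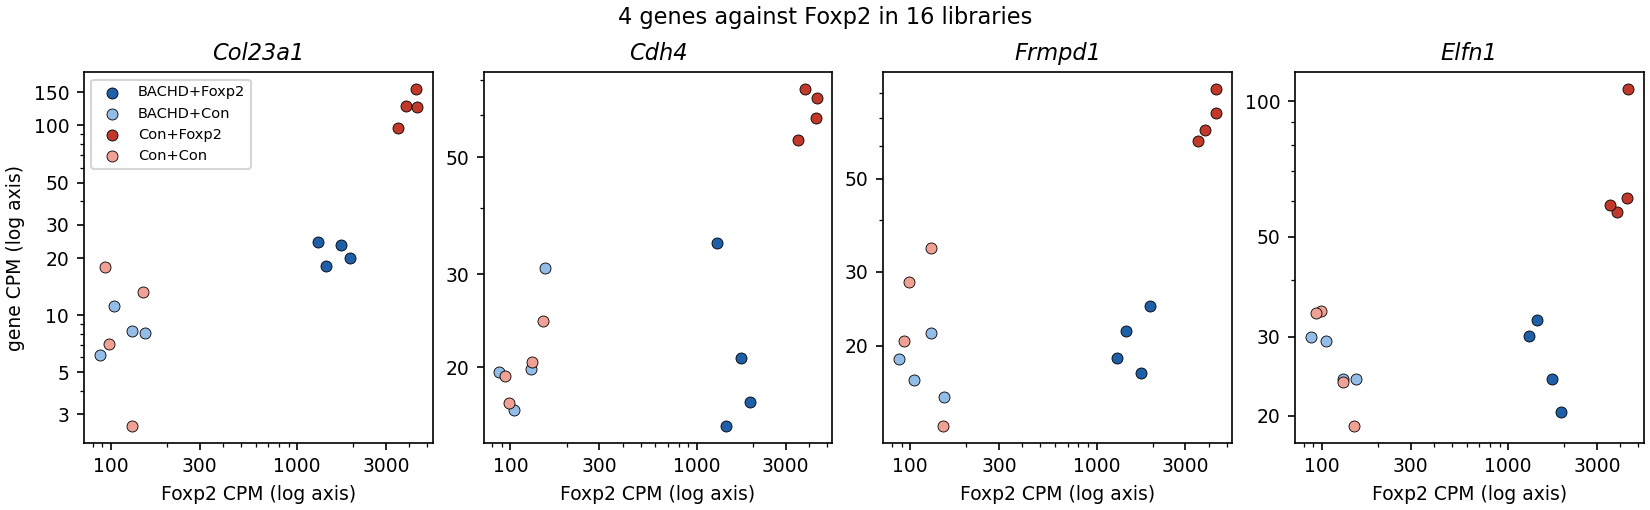
CPM of each gene (y axis, log scale) against Foxp2 CPM of the same library (x axis, log scale) in 16 libraries, coloured by group. The BACHD+Foxp2 libraries (1291 to 1929 CPM of Foxp2) lie level with the control-virus libraries for Cdh4, Frmpd1 and Elfn1 and above them for Col23a1, and the Con+Foxp2 libraries (3500 to 4389 CPM) are highest in every panel.

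**Figure D3:**
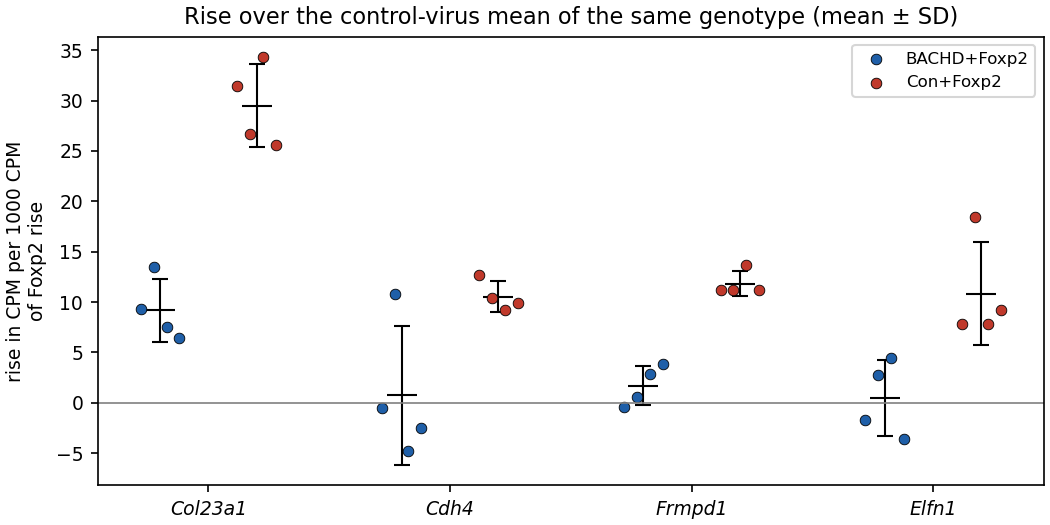
Rise of each gene above the control-virus mean of its genotype, in CPM per 1000 CPM of Foxp2 rise (y axis), in the 4 BACHD+Foxp2 and the 4 Con+Foxp2 mice (points), with mean and SD. The groups stay apart for Col23a1, Frmpd1 and Elfn1, and 1 BACHD+Foxp2 mouse reaches the Con+Foxp2 range for Cdh4, at 10.8 CPM. The genes were chosen on the levels of these groups, and the same count over all tested genes was not made.

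Whether libraries of a group with more Foxp2 also had more of these genes depended on the scale, and no pair passed its test. Among Con+Foxp2 mice, mouse 4 had the least Foxp2 and the lowest Col23a1, Cdh4 and Frmpd1, but not the lowest Elfn1. Among BACHD+Foxp2 mice, mouse 2 had the least Foxp2 and the highest Col23a1 and Cdh4. Deviations of log2 CPM from the group means were correlated over the 16 libraries for the 10 pairs among these 4 genes and Foxp2, with a permutation test of 100000 resamples within groups, two-sided. No pair passed after Benjamini-Hochberg adjustment over the 10. The lowest p was that of Foxp2 and Elfn1, with Pearson r = −0.56 (permutation p = 0.0322, adjusted p = 0.322) and a Spearman rank correlation of −0.55 (permutation p = 0.0481, adjusted p = 0.425). Without the 2 libraries farthest from the median of Foxp2, r was −0.56 as well. Con+Con mouse 2 and BACHD+Foxp2 mouse 4 had the most Foxp2 and the least Elfn1 of their groups. Con+Foxp2 mouse 2 had the most of both. For Foxp2 with Col23a1 r was −0.06 (permutation p = 0.869, adjusted p = 0.869) and the Spearman rank correlation −0.01 (permutation p = 0.982, adjusted p = 0.982). In linear CPM the sign turned for 6 of the 10 pairs, and Foxp2 had r = 0.60 with Col23a1, 0.52 with Frmpd1, 0.34 with Elfn1 and −0.0230 with Cdh4, with adjusted permutation p of 0.861 to 0.940. The scales weigh the groups differently. The SD of Foxp2 was 431 and 288 CPM in Con+Foxp2 and BACHD+Foxp2 mice, against 26.7 and 28.6 CPM in Con+Con and BACHD+Con mice. As a share of the mean it was 10.7% and 18.1%, against 22.7% and 24.1%. For Foxp2 the linear r thus rests mostly on Foxp2-virus mice, and the log2 r on mice of both viruses.

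The genes whose pattern over the 16 libraries was most like each gene were taken by Pearson r of log2 CPM over 12831 genes other than these 4 and Foxp2, as a description, since the libraries of a group share their treatment. Foxp2 itself ranked at 1 of 13562 genes for Col23a1 (r = 0.87), at 35 for Cdh4 (r = 0.69), at 43 for Frmpd1 (r = 0.68) and at 98 for Elfn1 (r = 0.61). Among the genes compared, Col23a1 was most like Arhgap17, a GTPase-activating protein (r = 0.87), Chrdl1, a secreted antagonist of bone morphogenetic proteins (r = 0.83), and Pcdhga3, a clustered protocadherin (r = 0.83). Cdh4 was most like Dio2, the deiodinase that activates thyroid hormone (r = 0.87), then Chrdl1 (r = 0.80) and the laminin receptor subunit Itga6 (r = 0.80). Frmpd1 was most like Foxf1, another forkhead factor (r = 0.92) and then Ccnd1, a cyclin of the G1 phase (r = 0.87). For Elfn1 the 3 most alike included Foxf1 (r = 0.79) and Greb1 (r = 0.78), a gene known as a target of the estrogen receptor. Among themselves the 4 genes had r of 0.75 to 0.86, such as 0.84 for Col23a1 and Cdh4. Some of them were thus closer to each other than the genes just named. These r, and those with Foxp2, include the group levels on which the genes were chosen and follow in part from that choice. With group means removed, r among the 4 genes ran from −0.62 to 0.23.

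Of the 24 genes whose Con+Foxp2 libraries lay above all others, 22 had a mean log2 CPM of at least 1. Among these 22, by the fold of the Con+Foxp2 mean over the highest other group mean, Foxf1 led with 10.03, and Col23a1 came next with 5.85. The genes under that level had folds of 19.2 and 6.30. Arhgef16, a guanine nucleotide exchange factor, had 3.78, Frmpd1 2.93, Cdh4 2.79, Greb1 2.63, Elfn1 2.55, Foxp2 2.52 and Chrdl1 2.13. Foxf1 had 1.90 CPM in BACHD+Foxp2 mice and 0.251 CPM in BACHD+Con mice, and 19.1 CPM in Con+Foxp2 mice and 0.956 CPM in Con+Con mice, so it is a gene of low level outside Con+Foxp2 mice.

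By edgeR, 19 genes were called higher in Con+Foxp2 than in Con+Con mice, 0.14% of those tested. The 4 genes described here are among them through their choice, so nothing is read from their calls, and the set serves only to place their values beside those of Foxp2 and of the 14 other genes. Col23a1, Cdh4, Frmpd1 and Elfn1 shared the low end with others of the 14, such as Pax7, a paired-box factor, at −5.20% of its rise in control mice, and Foxf1 at 9.11%. Pax7 had 0 reads in BACHD+Foxp2 and in Con+Con mice and 8.79 ± 3.47 CPM in Con+Foxp2 mice. At the other end stood Jun, a subunit of the AP-1 factor, at 98.2%, Rab3b, a synaptic vesicle GTPase, at 97.4%, and Pou4f1, a POU-domain factor, at 89.7%. Rab3b had 57.4 ± 11.01 CPM in BACHD+Foxp2 mice against 29.8 ± 1.62 CPM in BACHD+Con mice, and 57.1 ± 11.3 CPM in Con+Foxp2 mice against 28.8 ± 3.57 CPM in Con+Con mice. Between these ends lay Ccnd1, Kcnj10, Pcdhga3, Pcdhb3, Scnn1a, Luzp2, Cdx2 and Pcdhb18, at 29.6% to 66.2%. In BACHD mice, where 0.0885% of tested genes were called higher, 3 of the 14 others were among them by edgeR, Jun (adjusted p = 0.00845), Rab3b (adjusted p = 0.0182) and Pou4f1 (adjusted p = 0.00276).

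**Figure D4:**
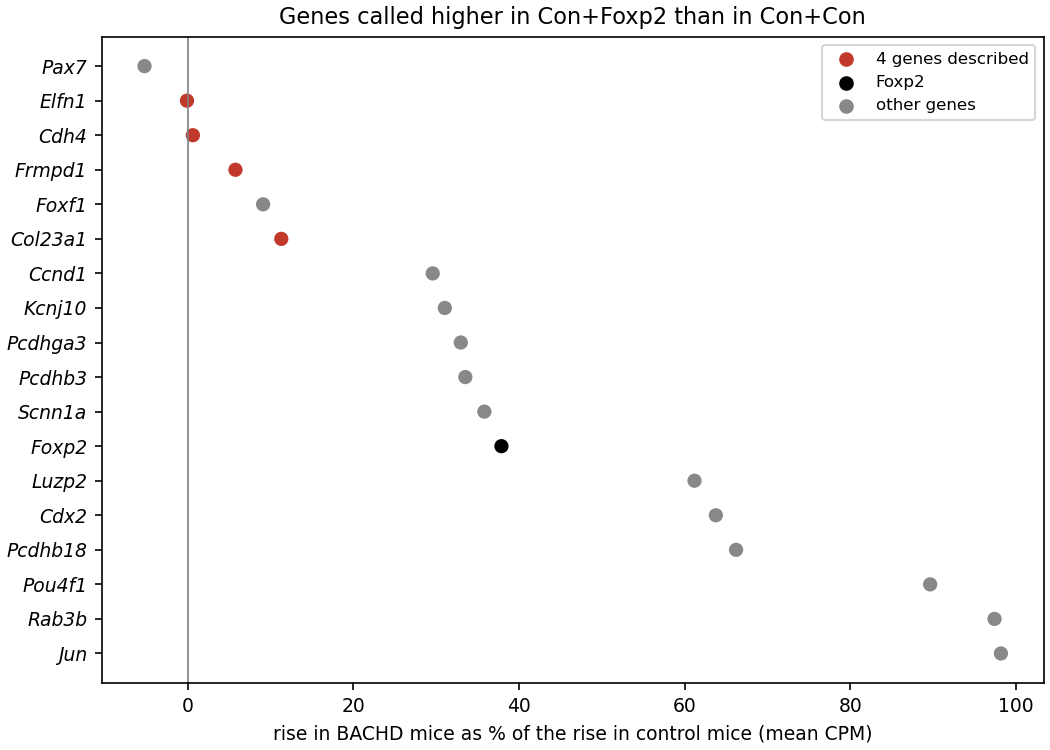
Rise in mean CPM under the Foxp2 virus in BACHD mice as a percent of the rise in control mice (x axis) for genes called higher in Con+Foxp2 than in Con+Con mice (y axis, sorted). The 4 genes described, in red, lie between −0.0740% and 11.3%, Foxp2, in black, at 37.9%, and Jun at 98.2%.

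Of 8 genes called different between BACHD+Foxp2 and Con+Foxp2 mice by edgeR, 0.059% of those tested, 7 were lower in BACHD+Foxp2 mice, 0.0516% of those tested. The 7 included Col23a1, Cdh4, Frmpd1, Elfn1, Foxp2 and Pax7. The 4 genes described were chosen on this contrast, and nothing is read from their place among the 7. The gene called higher was Htt, with a log2 fold change of 1.11.

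The partners and relatives of the 4 proteins were read from the same fit. Of 72 genes in 9 lists, 68 were tested, and edgeR called 0 of them in any of the 4 comparisons. Unadjusted p was under 0.05 for 5 of them for the virus in BACHD mice, for 8 for the virus in control mice, for 1 between the genotypes under the Foxp2 virus and for 1 under the control virus. Over all tested genes the shares with such a p were 7.73%, 7.04%, 4.18% and 3.44% in the same order. limma-voom also called 0, and DESeq2 called 1, Cdh22, higher in Con+Foxp2 than in Con+Con mice. Cdh22, a type II cadherin, had 42.7 ± 5.23 CPM in BACHD+Foxp2 against 30.3 ± 5.04 CPM in BACHD+Con mice, and 45.6 ± 7.10 CPM in Con+Foxp2 against 27.2 ± 4.79 CPM in Con+Con mice (edgeR adjusted p = 0.126 in control mice). The median log2 virus effect over the 68 genes was 0.04 in BACHD mice and 0.04 in control mice, against 0.00 and −0.00 over all tested genes.

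For the membrane collagens and furin, related to Col23a1, 3 of 4 were tested, with a median log2 virus effect of −0.12 in BACHD mice and −0.10 in control mice. Col25a1, also a membrane collagen, had 62.7 CPM in BACHD+Foxp2 and 68.4 CPM in BACHD+Con mice, and 70.3 CPM in Con+Foxp2 and 74.0 CPM in Con+Con mice. Furin, the protease that sheds such collagens, had 33.4 CPM in BACHD+Foxp2 and 29.4 CPM in BACHD+Con mice, and 30.8 CPM in Con+Foxp2 and 33.1 CPM in Con+Con mice. Col17a1, the third of these genes, had 3.51 CPM in BACHD+Foxp2 and 13.0 CPM in BACHD+Con mice (edgeR adjusted p = 0.307), and 5.35 CPM in Con+Foxp2 and 10.6 CPM in Con+Con mice (edgeR adjusted p = 0.797). Its means were lower under the Foxp2 virus in both genotypes, where those of Col23a1 were higher. Among collagen-binding integrins and discoidin receptors, 6 of 7 were tested, and the medians were −0.06 in BACHD mice and −0.03 in control mice.

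The classical type I cadherins other than Cdh4 were 4 genes, with medians of −0.87 in BACHD mice and 0.62 in control mice. Cdh2, or N-cadherin, had 145 ± 8.59 CPM in BACHD+Foxp2 and 120 ± 25.3 CPM in BACHD+Con mice, and 164 ± 13.9 CPM in Con+Foxp2 and 126 ± 21.5 CPM in Con+Con mice. The other 3, Cdh1, Cdh3 and Cdh15, had group means of 0.522 to 4.11 CPM. The list's median in BACHD mice rests on Cdh1 and Cdh15, and that in control mice on Cdh15 and Cdh2. The 13 type II cadherins had medians of 0.21 in BACHD mice and 0.13 in control mice, and the 8 catenins of 0.03 and 0.05. Ctnnd2, a catenin of neurons, had 467 ± 22.8 CPM in BACHD+Foxp2 and 422 ± 41.5 CPM in BACHD+Con mice, and 485 ± 37.1 CPM in Con+Foxp2 and 404 ± 46.7 CPM in Con+Con mice.

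Near Frmpd1, 2 of 3 relatives with FERM and PDZ domains were tested, with medians of 0.02 in BACHD mice and −0.23 in control mice. Frmpd4 had 159 CPM in BACHD+Foxp2 and 177 CPM in BACHD+Con mice, and 181 CPM in Con+Foxp2 and 185 CPM in Con+Con mice. The 6 partners and inhibitory G alpha subunits had medians of −0.06 in BACHD mice and −0.02 in control mice, with Gnao1, Gnai2 and Gnai1 at the highest CPM. Gpsm1 and Gnai3 are named for their unadjusted p. Gpsm1, the gene of AGS3, had 39.1 ± 6.85 CPM in BACHD+Foxp2 and 52.6 ± 6.36 CPM in BACHD+Con mice (edgeR adjusted p = 0.546), and 48.1 ± 6.82 CPM in Con+Foxp2 and 37.3 ± 5.55 CPM in Con+Con mice (edgeR adjusted p = 0.694). Gnai3, an inhibitory G alpha subunit, had 26.7 ± 7.47 CPM in BACHD+Foxp2 and 30.7 ± 10.2 CPM in BACHD+Con mice, and 44.2 ± 9.67 CPM in Con+Foxp2 and 28.6 ± 5.02 CPM in Con+Con mice. Its edgeR adjusted p was 0.543 for the virus in control mice and 0.998 between BACHD+Foxp2 and Con+Foxp2 mice. For the ELFN relative and the glutamate receptors, 5 of 6 were tested, with medians of −0.17 in BACHD mice and −0.03 in control mice. Elfn2 had 124 CPM in BACHD+Foxp2 and 112 CPM in BACHD+Con mice, and 125 CPM in Con+Foxp2 and 100.02 CPM in Con+Con mice. Grm7, the metabotropic receptor that Elfn1 recruits, had 116 CPM in BACHD+Foxp2 and 112 CPM in BACHD+Con mice, and 113 CPM in Con+Foxp2 and 100.2 CPM in Con+Con mice. The 21 leucine-rich repeat adhesion proteins had medians of 0.05 in BACHD mice and 0.02 in control mice.

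The nearest tested gene on each side of Col23a1, Cdh4, Frmpd1 and Elfn1 was also read, and edgeR, DESeq2 and limma-voom called 0 of these 8 in any of the 4 comparisons. With unadjusted p, edgeR gave 1 of 8 under 0.05 for the virus in control mice, Tomm5, a mitochondrial import subunit beside Frmpd1, and 0 in the other 3 comparisons. Of all tested genes, 7.04% had such a p for the virus in control mice. Phykpl starts 839 bases past the end of Col23a1 and had 8.24 ± 4.28 CPM in BACHD+Foxp2 and 6.44 ± 2.89 CPM in BACHD+Con mice, and 12.4 ± 4.22 CPM in Con+Foxp2 and 7.13 ± 1.77 CPM in Con+Con mice. The others were Clk4, Fam217b, 4921531C22Rik, Trmt10b, Psmg3 and Mad1l1.

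In the authors' deposited table for the virus in BACHD mice, the log2 fold changes were 0.78 for Col23a1, 0.01 for Cdh4, 0.13 for Frmpd1 and 0.00 for Elfn1. In the authors' deposited table for the virus in control mice they were 1.21 for Col23a1, 1.27 for Cdh4, 1.12 for Frmpd1 and 0.96 for Elfn1. The authors' deposited table thus gave Col23a1 less than Cdh4 in control mice, where edgeR gave it the larger value of 3.60. DESeq2 run here on the deposited counts also gave Col23a1 the larger value, 3.61 against 1.59 for Cdh4. The cause of this difference from the deposited values was not tested. For BACHD+Con against Con+Con mice the authors' deposited table gave −0.08 for Col23a1, 0.05 for Cdh4, −0.21 for Frmpd1 and −0.03 for Elfn1, each with an adjusted p of 1.00 there.

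Markers of the cell types that a striatal sample can hold were summed for 11 lists of 105 genes, all of which had reads. In 0 of the 11 did the Con+Foxp2 libraries lie apart from the 12 others. Col23a1, Cdh4, Frmpd1 and Elfn1 did so through their choice. All Con+Foxp2 libraries lay above the 12 others for only 0.177% of tested genes. Nothing is therefore read from the count of lists. The 12 projection-neuron markers summed to 3840 to 5392 CPM in BACHD+Foxp2 and 4183 to 6691 CPM in BACHD+Con mice, and to 3608 to 4517 CPM in Con+Foxp2 and 3605 to 7402 CPM in Con+Con mice. Though these ranges overlapped, 0 of the 12 were higher under the Foxp2 virus in either genotype. Their median log2 fold change was −0.25 in BACHD mice and −0.46 in control mice, and edgeR called 0 of them. The 12 interneuron markers, the class Elfn1 is best known from, were at 686 to 824 CPM in BACHD+Foxp2 and 844 to 913 CPM in BACHD+Con mice. They were at 554 to 715 CPM in Con+Foxp2 and 804 to 1053 CPM in Con+Con mice, lower under the Foxp2 virus in both genotypes without overlap. In each genotype 0 of these 12 were higher under the Foxp2 virus, and edgeR called 1 lower in BACHD mice and 0 in control mice. Microglial markers were at 326 to 384 CPM in BACHD+Foxp2 and 239 to 290 CPM in BACHD+Con mice, without overlap and with 10 of 10 higher, and at 316 to 397 CPM in Con+Foxp2 and 269 to 331 CPM in Con+Con mice. Astrocyte markers were at 7379 to 8599 CPM in BACHD+Foxp2 and 6900.3 to 7430 CPM in BACHD+Con mice, and at 8365 to 8906 CPM in Con+Foxp2 and 7331 to 8940 CPM in Con+Con mice, with 1 of 10 higher in BACHD+Foxp2 than in Con+Foxp2 mice. Markers of thalamic and other Slc17a6 neurons were at 93.9 to 213 CPM in BACHD+Foxp2 and 116 to 639 CPM in Con+Foxp2 mice, with a median log2 fold change of −1.32 over 7 tested genes. Of 10 oligodendrocyte markers, 8 were higher under the Foxp2 virus in BACHD mice and 0 in control mice. All 10 were higher in BACHD+Foxp2 than in Con+Foxp2 mice, and edgeR called 0 of them. Summed cortical markers ranged from 207 to 1472 CPM over the 16 libraries and overlapped in all groups. For the virus, edgeR also called 1 astrocyte marker higher in each genotype. In BACHD mice it called 1 microglial marker higher and 1 cortical marker lower. The part of these cell types in the levels of the 4 genes was not tested.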

How the data were processed

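For each mouse the authors deposited raw gene counts, in whole numbers without normalization. The 3 tables of their own comparisons give deposited log2 fold changes and adjusted p-values. STAR 2.4.0, HTSeq, DESeq2 and the build mm10 are named per the submitters' processing notes. The sources used here do not state the strand setting or the gene annotation. Per the labels, RNA was extracted with a Qiagen lipid tissue kit, and libraries were made with Clontech SMARTer reagents and run on a HiSeq. Lines that name no gene were left out of library sizes, and genes held 22.5% to 24.7% of the listed reads. Shallow libraries limit the precision for genes of few reads.

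The 4 genes and the lists were chosen with earlier results of these data known. The main test was edgeR's quasi-likelihood F test (edgeR 4.0.16, R 4.3.3, TMM scaling, filterByExpr, all 16 libraries, 12 residual degrees of freedom), two-sided, with Benjamini-Hochberg adjustment over 13563 genes and calls at an adjusted p under 0.05. The SE is the log2 fold change divided by the square root of F, and intervals use 95% of the t distribution with 12 degrees of freedom. Log2 CPM used a prior count of 2. Scripts were tested on simulated data. No 2 of the libraries, compared in 120 pairs, agreed within counting noise. The labels do not say whether the 4 samples of a group were prepared apart, so p-values measure the spread between these mice. DESeq2 1.42.0 and limma 3.58.1 (voom) were alternatives, with others described at the end.

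Named genes were the 4 genes and Foxp2, list genes called in a comparison or otherwise up to 3 of high CPM per list, the nearest tested gene on each side, the 3 genes most alike (mean log2 CPM at least 1, predicted names left out), up to 10 genes with Con+Foxp2 above all others, and genes called higher in Con+Foxp2. Cdh22, Gpsm1, Gnai3, Pax7's reads, Tomm5 and Htt were named after their values were seen. Some genes that the rule would name are not reported here.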

Additional observations from a re-analysis of the deposited data

Results flagged for a closer look

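Elfn1 in Con+Foxp2 mouse 2, at 106 CPM, stood apart from the other 3 mice of its group by 0.913 of the group's range, past Dixon's 95% limit for 4 samples. It was the 1 flag among 20 groups of 4 looked at (Foxp2 and the 4 genes in each group), and chance flags about 1 in 20 groups. The other 3 mice, at 56.7 to 61.0 CPM, were all above the 12 libraries of the other groups.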

How the results depend on the processing

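Log2 fold changes of the 4 genes in the 3 comparisons described without a test moved by less than 1 SD of log2 CPM between mice (0.18 to 0.81) under all 15 alternatives. Some moved by more than their SE. In control mice Col23a1 reached 4.02 without Con+Con mouse 3, and Elfn1 1.09 without Con+Foxp2 mouse 2. Cdh4 in BACHD mice was −0.30 without BACHD+Foxp2 mouse 2 and 0.28 without the 3 libraries lowest in cortical markers. Between BACHD+Foxp2 and Con+Foxp2 mice, Cdh4 was at −1.78 without BACHD+Foxp2 mouse 2 and Elfn1 at −1.13 without Con+Foxp2 mouse 2. For BACHD+Con against Con+Con mice no alternative made a call, but signs turned near 0. Without the 3 libraries lowest in cortical markers, BACHD+Con mice 2 and 3 and Con+Con mouse 4, the value was −0.16 for Cdh4 and 0.0338 for Elfn1. That fit thus lost control-virus mice only, most of them from BACHD+Con. With 1 library left out, values were −0.60 to 0.11 for Col23a1, −0.13 to 0.20 for Cdh4, −0.63 to −0.21 for Frmpd1 and −0.20 to 0.0722 for Elfn1. The lowest came without Con+Con mouse 2 for Frmpd1 (SE 0.22) and without Con+Con mouse 4 for Col23a1 (SE 0.28). Both were larger in size than with all mice, so these differences depended on single Con+Con mice. In linear CPM the deviation r turned to 0.60 for Foxp2 with Col23a1, −0.0230 with Cdh4, 0.52 with Frmpd1 and 0.34 with Elfn1, 0.40 for Col23a1 with Frmpd1 and 0.0859 for Cdh4 with Elfn1, and Col23a1 with Elfn1 to −0.32 without the 2 farthest libraries. Rises per Foxp2 moved by less than the SD between mice, but with 1 library left out those in BACHD mice ran from −2.59 to 2.86 for Cdh4, −0.831 to 1.83 for Elfn1 and 1.01 to 2.53 for Frmpd1. Over all genes, calls depended on the method. With no low-count filter 53 genes (33 by the main test) were called for the virus in BACHD mice and 75 (31) in control mice. DESeq2 called 66 and 87, and 15 (8) between genotypes under the Foxp2 virus. A fit of only the BACHD libraries called 19. Without the 3 libraries lowest in cortical markers, which leaves fewer BACHD+Con mice, 6 were called. Under the control virus 2 genes were called, and 1 by limma-voom or without those 3 libraries. With 1 library left out, calls were 9 to 26 for the virus in BACHD mice, 10 to 46 in control mice, 4 to 8 between genotypes under the Foxp2 virus and 1 to 2 under the control virus. The lowest counts, over 1.5 times below the full ones, came without BACHD+Con mouse 1 (20), 2 (18) or 3 (9) or BACHD+Foxp2 mouse 4 (18) for the virus in BACHD mice. In control mice they came without Con+Foxp2 mouse 2 (10) or 3 (14) or Con+Con mouse 2 (12) or 4 (14), and under the Foxp2 virus without BACHD+Foxp2 mouse 4 (4). Under the control virus 1 gene was left without BACHD+Con mouse 3 or Con+Con mouse 1, 2 or 4. Replicate numbers did not pair the mice (2 of 24 same-number pairs had r over 0.1, and 1 of 16 mice correlated best with its own number), and the replicate block called 22, 21, 7 and 1 in the same order. The cause of these shifts was not tested. Col23a1 in Con+Con mice rests on as few as 7 reads, which limits its fold.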
